A study of Rattus norvegicus with 18 samples.

Results

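The effect of Phen-DC3 on cultured rat nucleus pulposus cells was measured against the control libraries that carry its name. The members were chosen by label alone, as the 3 libraries titled for Phen-DC3 and the 3 titled as its controls, which are 6 of the 18 RNA-seq libraries of the series. Nucleus pulposus cells form the gelatinous core of the intervertebral disc. They came from Sprague Dawley rats aged 8 weeks and were grown in serum-supplemented DMEM. The treated cells received Phen-DC3 for 24 hours, and the controls are named in the labels only as controls of Phen-DC3. The sources used here do not give the dose or say what the control cultures received. The labels do not say whether the libraries of a group came from separate cultures or animals, so the p-values measure only the spread between these libraries, which may be technical. The other 12 libraries were PDS, Braco-19, each given for 24 hours, the controls named for PDS, and 3 controls whose titles name no compound, which were set against Braco-19 by elimination. All 18 were used to estimate the spread.

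G-quadruplexes are folds that guanine-rich DNA or RNA can take up when short runs of guanine stack on one another. They occur in many promoters, at telomeres and in transcripts, and helicases of the RecQ and DEAH-box families help to resolve them. Phen-DC3, a bisquinolinium derivative of phenanthroline, binds the folds and stabilises them. Compounds of this kind are used to ask which genes and processes respond when the folds persist.

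The 6 libraries held 15715121 to 17290095 counts, in the range of the series. Nucleus pulposus markers summed to 944 to 1060 CPM (counts scaled to the size of the library) in the controls and 1071 to 1096 CPM with Phen-DC3. Of 20 such markers, 12 passed the filter on low counts, and their median log2 change was -0.03 before any correction for gene length. Most of each sum came from Cd44 and Basp1, and without Basp1 the sums of the groups overlapped. Cd44 stood at 560.5, 566.7 and 532.0 CPM in the controls and 543.3, 519.8 and 583.6 CPM with Phen-DC3, and Basp1 at 143, 257 and 292 CPM against 330, 326 and 277 CPM. The disc regulator Sox9 was at 6.17 to 7.43 CPM against 4.94 to 6.36 CPM. The notochordal markers Shh, Noto, Tbxt and Krt19 were at 0 in all 6 libraries, and Acan, the main proteoglycan of the disc, was at most 0.42 CPM. Annulus and fibroblast markers summed to 2503 to 2763 CPM in the controls and 2354 to 2668 CPM with Phen-DC3, with Tnmd at 0. Of 10 macrophage markers, Tyrobp, Cd163 and Ptprc were at 0, and the list summed to 1.12 to 1.90 CPM and 1.37 to 2.16 CPM. Of 10 lymphocyte markers, 9 were at 0 and the list summed to at most 0.25 CPM. Endothelial markers summed to 15.7 to 28.7 CPM and 26.3 to 34.0 CPM, most of it Egfl7, while Kdr, Cdh5 and Cldn5 were at 0. In such bulk samples, fewer cells of a type and less RNA per cell cannot be told apart.

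The 6 libraries did not fall into 2 clear groups. The median absolute log2 difference between genes of control replicates 1 and 3 was 0.21, and that between control replicate 3 and Phen-DC3 replicate 2 was 0.12. Control replicate 3 was also closer to Phen-DC3 replicate 1 (0.16) and replicate 3 (0.12) than to control replicate 1. The median SD between replicates was 0.14 on the log2 scale in the Phen-DC3 controls and 0.12 with Phen-DC3, against 0.08 to 0.11 in the other 4 groups. Every test below that pools the spread over 18 libraries therefore uses a spread narrower than that of the 6 libraries themselves.

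Long genes took a smaller share of the counts in every Phen-DC3 library than in any of its controls. Genes whose model in the table is longer than 5000 bp took 10.7%, 9.97% and 9.26% of the counts in control replicates 1 to 3. They took 7.42%, 8.11% and 8.44% in Phen-DC3 replicates 1 to 3. The groups did not overlap, and the means were 9.99% ± 0.74 and 7.99% ± 0.52 (SD, n = 3 libraries each, exact two-sided permutation p = 0.1, the smallest that 3 against 3 can give). Genes up to 1000 bp moved the other way, from 13.6% ± 0.97 to 15.8% ± 0.75, also without overlap. The slope of log2 CPM on length, relative to the mean of 18 libraries, was -0.04, -0.22 and -0.39 per 10-fold of length in the controls and -0.71, -0.61 and -0.49 with Phen-DC3. The PDS libraries and their controls, at 7.98% to 9.08% of counts in genes over 5000 bp, lay near these values. Braco-19 and the controls with no compound named were at 23.3% to 25.4%. What part the compound has in this shift was not tested.

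**Figure D1:**
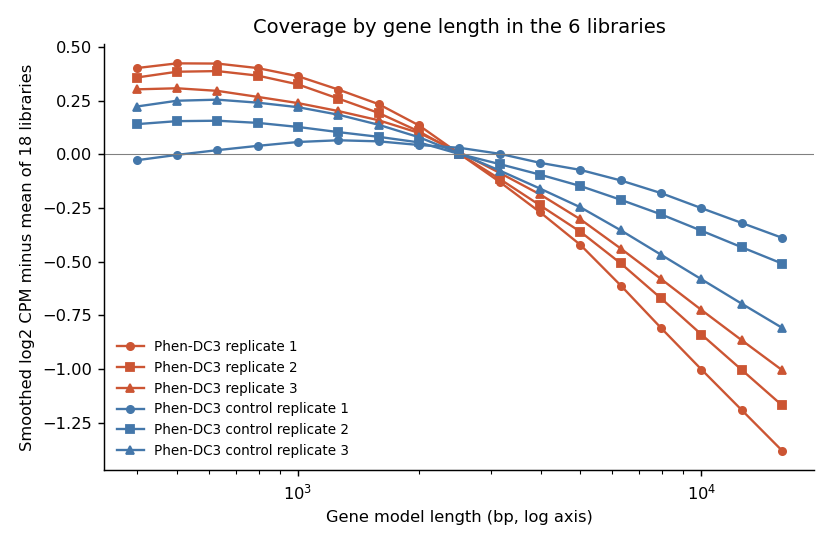
Smoothed log2 CPM minus the mean of 18 libraries (vertical) against gene model length in bp (horizontal, log axis), 1 line per library, controls in blue and Phen-DC3 in red. At the long end the 3 Phen-DC3 lines lie below the 3 control lines, with control replicate 3 nearest to them.

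Before gene length was allowed for, 1136 of 14184 tested genes passed the edgeR quasi-likelihood test at an adjusted p under 0.05. Of these, 311 were higher (2.19% of those tested) and 825 lower (5.82%). The 2 directions lay at opposite ends of the length scale. Higher genes had a median length of 1197 bp and lower genes one of 5313 bp. In the longest decile, 5128 to 29464 bp, 438 genes were lower and 4 higher, and the median log2 change was -0.32. In the shortest decile, up to 770 bp, 64 were higher and 6 lower, and the median was 0.21. A smooth trend on length was then taken off each library. It brought the median of every decile to between -0.01 and 0.02, and would also remove any true response that follows length.

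After this correction 49 genes passed, 21 higher (0.148%) and 28 lower (0.197%), and in all 49 the 3 Phen-DC3 libraries lay on one side of the 3 controls. Without overlap between the groups were also 16.1% of all tested genes. All 28 lower genes and 7 of the 21 higher genes had also passed before the correction, so 35 were called either way. The calls depended on which libraries and weights entered the fit, and what part the pooled spread has in this was not tested. A fit of the 12 PDS and Phen-DC3 libraries called 0 genes, with 2420 at an unadjusted p under 0.05. With the 6 libraries alone, all 49 had an adjusted p of 0.4, although each had an unadjusted p under 0.05, as did 12% of all genes. With a weight for each group's spread (limma voom) their adjusted p ran from 0.073 to 0.24 and none passed. Leaving out Phen-DC3 replicate 1 or 2 or control replicate 2 left 0 genes called by edgeR, with 1446, 1868 and 1986 at an unadjusted p under 0.05, and leaving out control replicate 1 left 3. Leaving out Phen-DC3 replicate 3 gave 856, and leaving out control replicate 3 gave 1527, with all 49 among them in each case.

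**Figure D2:**
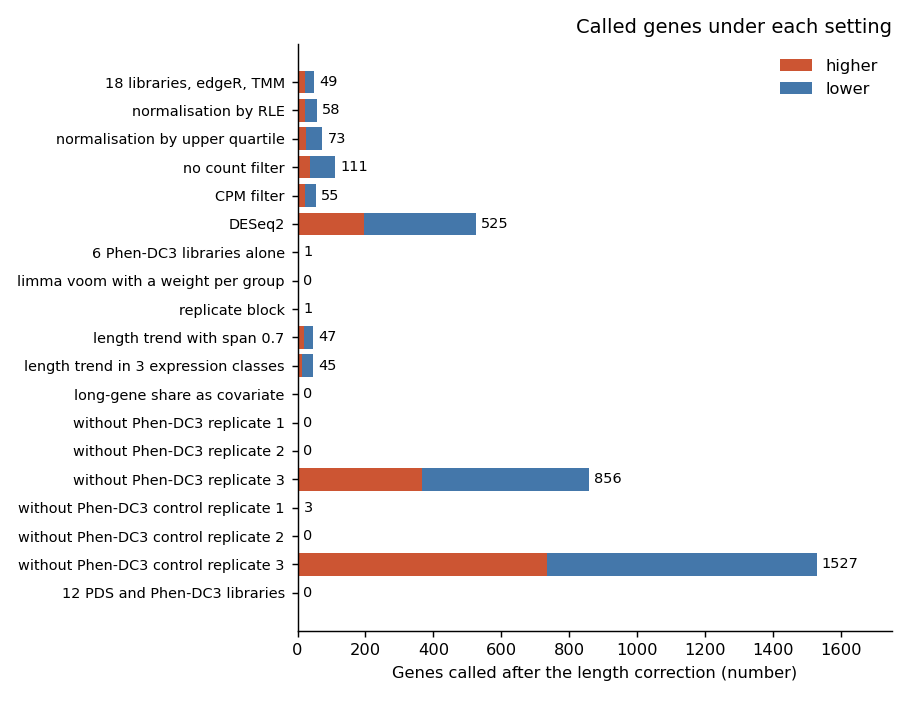
Number of genes called after the length correction (horizontal) under each setting (vertical), with higher genes in red and lower genes in blue. The count of 49 from 18 libraries ranges from 0 to 1527 across the settings, and both high counts come from leaving out a replicate 3.

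The 28 lower genes are described by the known roles of their products, an order made after they were called and not a tested theme. Zfp445, a KRAB zinc finger protein that helps to keep genomic imprints (chromosome 8, 131888047 to 131899023 in the table's coordinates, for which no source used here names a build), stood at 13.5, 16.5 and 13.02 CPM in the controls and at 7.96, 8.96 and 7.48 CPM with Phen-DC3. The highest treated library was well below the lowest control. Its log2 change was -0.77 ± 0.12 (SE) after the length correction, with an adjusted p of 0.016. Ep300, which encodes the histone acetyltransferase p300 (chromosome 7, 122818975 to 122861296), stood at 5.73, 4.79 and 4.56 CPM against 2.10, 3.16 and 2.61 CPM. The groups did not overlap, and the change was -0.92 ± 0.18 after the correction (adjusted p = 0.032) and -0.93 before it. Its model in the table is 2584 bp long, a length at which the correction changes little. If its transcripts in these cells have another length, the trend on length would remain in this value, which was not tested. Skil, a corepressor of SMAD proteins that is itself a target of TGF-beta signalling, had 27.8, 30.2 and 25.6 CPM in the controls and 16.1, 15.8 and 20.7 CPM with Phen-DC3. It fell by 0.66 ± 0.13 on the log2 scale (adjusted p = 0.033), with Phen-DC3 replicate 3 the highest of the treated libraries. Rsf1, a chromatin remodelling subunit, also fell, by 0.61 ± 0.13 (adjusted p = 0.045), as did Tulp4, by 0.49 ± 0.08 (adjusted p = 0.016).

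U2surp, a protein associated with the U2 spliceosomal particle, stood at 31.3, 35.6 and 24.0 CPM in the controls and 15.6, 17.5 and 22.3 CPM with Phen-DC3, so that control replicate 3 and Phen-DC3 replicate 3 lay close together. Its log2 change was -0.65 ± 0.13 (adjusted p = 0.033). Zc3h11a, a zinc finger protein linked to mRNA export, fell by 0.48 ± 0.09 (adjusted p = 0.032), and Rbms1, an RNA-binding protein, by 0.39 ± 0.09 (adjusted p = 0.045). Ifih1 encodes MDA5, a cytosolic sensor of double-stranded RNA. It had 9.72, 8.53 and 7.01 CPM in the controls and 4.26, 4.39 and 5.58 CPM with Phen-DC3, without overlap, and fell by 0.70 ± 0.15 (adjusted p = 0.041).

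Thbs1, the matrix protein thrombospondin 1, stood at 1841, 1670 and 1606 CPM against 1116, 1209 and 1338 CPM, and fell by 0.37 ± 0.08 (adjusted p = 0.041). Its groups were well apart. Itgav, the integrin alpha V chain that binds matrix proteins, fell by 0.35 ± 0.07, Il6st, the shared gp130 receptor chain of the interleukin 6 family, by 0.41 ± 0.09, and Lims1, an adaptor at integrin adhesions, by 0.56 ± 0.12, each with an adjusted p of 0.041 or 0.045. Flrt2, a membrane protein of cell guidance, fell by 0.59 ± 0.11, Hs6st2, a heparan sulfate sulfotransferase, by 0.46 ± 0.09 and Ssh2, a phosphatase that activates cofilin, by 0.82 ± 0.16, each with an adjusted p of 0.032.

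Vps13a had the largest fall among the lower genes with a gene symbol. It encodes a lipid transfer protein at membrane contact sites. It stood at 5.55, 4.85 and 2.45 CPM in the controls and 0.93, 1.29 and 1.90 CPM with Phen-DC3. Control replicate 3 was the lowest control and Phen-DC3 replicate 3 the highest treated library, and the groups still did not overlap. The log2 change was -1.63 ± 0.27 before and -1.29 ± 0.23 after the correction (adjusted p = 0.028). Mitochondrial carriers and regulators in the lower set were Slc25a36, at -0.58 ± 0.11, and Mcur1, at -0.71 ± 0.14, with adjusted p of 0.032 and 0.033. Both have short models, of 936 and 1011 bp, and their changes were smaller before the correction, at -0.39 and -0.54. Slk and Fndc3b, a kinase and a membrane protein, also fell, by 0.51 ± 0.11 and 0.33 ± 0.07.

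Of the higher genes, those called both before and after the correction were Haus5, Dhodh, Scamp3, Rgs3, RT1-CE4, Vkorc1 and Zfyve27. Haus5, a subunit of the augmin complex that nucleates spindle microtubules (chromosome 1, 89109750 to 89124132), stood at 17.9, 18.3 and 20.2 CPM in the controls and 27.0, 26.2 and 24.1 CPM with Phen-DC3. The groups were apart without any correction, and the log2 change was 0.45 ± 0.09 before and 0.66 ± 0.11 after it (adjusted p = 0.012 and 0.016). Dhodh, the mitochondrial enzyme of pyrimidine synthesis (chromosome 19, 42066351 to 42082012), had 27.9, 30.5 and 31.7 CPM in the controls and 40.1, 42.3 and 36.8 CPM with Phen-DC3. It rose by 0.40 ± 0.08 before and 0.47 ± 0.08 after (adjusted p = 0.011 and 0.016). Vkorc1, the vitamin K epoxide reductase that supports the carboxylation of matrix Gla proteins, had 103.7, 108.2 and 113.1 CPM against 146.7, 140.6 and 133.9 CPM. Its model is 2385 bp long, where the correction changes little, and it rose by 0.37 ± 0.08 either way (adjusted p = 0.015 and 0.041). Here too the trend would remain if the transcripts have another length than the model. RT1-CE4, a class I antigen of the rat major histocompatibility complex, rose by 0.72 ± 0.15 (adjusted p = 0.041). It belongs to a family of near-identical genes that can share reads, so its value is uncertain.

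The other 14 higher genes passed only once length had been allowed for, and 15 of the 21 higher genes lay in the longest decile. Kif1b, a kinesin motor for vesicles and mitochondria with a model of 15549 bp, had 631.5, 641.6 and 669.4 CPM in the controls and 735.1, 703.6 and 654.4 CPM with Phen-DC3. These overlapped, and the log2 change before the correction was 0.11 ± 0.06 (adjusted p = 0.24). The length-corrected values were 824, 909 and 1165 CPM against 1893, 1568 and 1303 CPM, a change of 0.72 ± 0.13 (adjusted p = 0.032). Stt3a, a catalytic subunit of oligosaccharyltransferase, changed by 0.01 ± 0.06 before and 0.41 ± 0.07 after. Naca, a chaperone of nascent peptides at the ribosome, changed by 0.22 ± 0.07 and 0.54 ± 0.10. Its gene also gives a muscle form with a long extra exon, and the 6816 bp in the table are those of the whole model. For Abcb4, Mau2, Ddi2 and Tnrc6b the sign differed, with log2 changes of -0.14, -0.04, -0.10 and -0.28 before and 0.44, 0.36, 0.34 and 0.37 after. The length of the transcripts these cells make was not measured, for higher or lower genes. What the correction adds to each of these 14 genes, or fails to take off the lower genes, was therefore not tested.

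**Figure D3:**
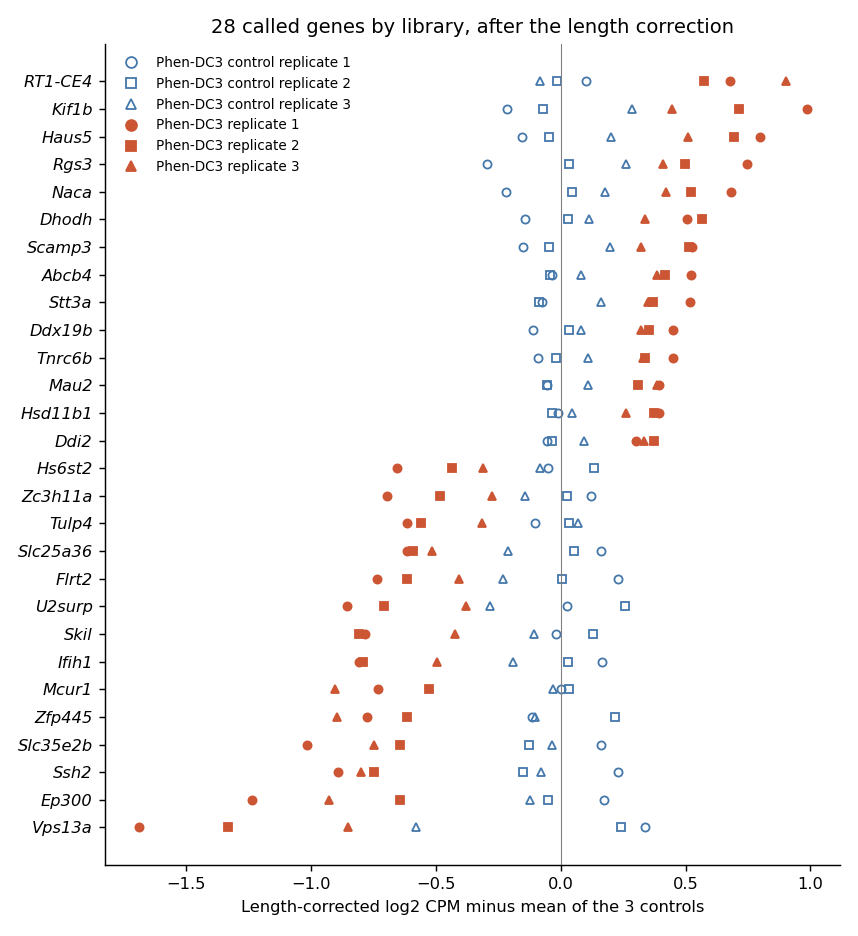
Length-corrected log2 CPM minus the mean of the 3 controls (horizontal) for 14 higher and 14 lower called genes (vertical), 1 symbol per library, with open blue symbols for controls and filled red symbols for Phen-DC3. The groups do not overlap in any of the 28 genes, and the replicate 3 triangles of the 2 groups are often the closest pair.

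Promoter sequence was examined because the compound binds G-quadruplexes. The motif searched was GGG, repeated to 4 runs with gaps of 1 to 7 bases, on either strand, in the RefSeq window from 250 bases before to 50 after each gene's start (assembly GRCr8). Of 13478 tested genes with a symbol, 9894 matched a window, and 26% of these held the motif. Among called genes with a window the share was 4 of 15 higher (26.7%) and 6 of 21 lower (28.6%), close to that of all genes. On the strand opposite to the gene it was held by all 6 of those lower genes (28.6%) and by 13.3% of the higher, against 13.5% of all genes, a difference that was not tested. Median GC content of the windows was 67% in the lower genes, 60.7% in the higher and 61% in all genes. It was 67.3% in windows with the motif on either strand. The median log2 change after the correction was 0.01 in 2574 genes with the motif and 0.02 in 7320 without it. In each of 5 classes of promoter GC content the medians with and without the motif were within 0.02 of each other. A match describes letters, not a folded structure.

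Of the 30 called genes with a symbol and the smallest p, 15 in each direction, 17 had a window without the motif, 7 had no window in the table, and 6 had a match upstream of the start. The matches of 3 lower and 3 higher genes are shown as read along the guanine-rich strand, 5′ to 3′, with the guanine runs in capitals, to let the spacing of the runs be seen. Where a window held several, the shortest upstream of the start is given. Ep300 at chr7:114987658-114987685 and Naca at chr7:1054686-1054710 carry the runs shown on the strand of the gene, and the other 4 carry them on the opposite strand. Ep300 also has a match on the opposite strand. Skil is at chr2:114203719-114203736, Ssh2 at chr10:62695707-62695726, Kif1b at chr5:165026075-165026095 and Ddi2 at chr5:159318460-159318484.
Ep300 (lower): GGGaccGGGcgagagtGGGgcaagcGGG
Skil (lower): GGGcGGGggaGGGgaGGG
Ssh2 (lower): GGGcGGGgcgcctGGGcGGG
Naca (higher): GGGaaGGGcgccacaGGGatctGGG
Kif1b (higher): GGGtgcGGGtgcGGGtgcGGG
Ddi2 (higher): GGGcGGGgctagGGGaaccggaGGG
The gaps between runs are all of one length only in Kif1b, and the shortest match is that of Skil, at 18 bases.

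Gene lists were described by counts and medians, beside a median of all tested genes of -0.01 before and 0.00 after the correction. After the correction 50.6% of all tested genes were above 0 and 19.1% had an unadjusted p under 0.05. DESeq2 called 525 of the 11145 genes it gave an adjusted p (4.71%), 197 higher and 328 lower. Of 81 entries for cytosolic ribosomal proteins, 18 were called higher and 0 lower before the correction, with a median log2 change of 0.34. Of all tested genes 2.19% were called higher and 5.82% lower before the correction. After it 0 were called by edgeR in either direction and 21 (25.9%) had an unadjusted p under 0.05, against 19.1% of all genes. The median was 0.16, and 65 of 81 (80.2%) were above 0. The median of the list in Phen-DC3 replicates 1 to 3 was 0.23, 0.13 and 0.13 above the mean of the controls after the correction, and that in the controls ran from -0.09 to 0.04. Rplp0, a stalk protein of the large subunit, had 2908, 3258 and 3363 CPM against 4263, 3751 and 4015 CPM, without overlap. Its change was 0.34 ± 0.07 before (adjusted p = 0.012) and 0.18 ± 0.06 after (adjusted p = 0.12).

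Before the correction 19 of 59 nuclear subunits of oxidative phosphorylation were called higher (32.2%, against 2.19% of all tested genes). After it 0 were, and the medians were 0.32 before and 0.13 after. Mitochondrial ribosomal proteins gave 7 of 49 and 0 of 49, with medians of 0.27 and 0.14, and proteasome subunits gave 9 of 31 and 0 of 31, with medians of 0.17 and 0.09. At an unadjusted p under 0.05 there were 10 (16.9%), 8 (16.3%) and 9 (29%) after the correction, again beside 19.1% of all genes. With the length trend fitted in 3 classes of expression the medians of the ribosomal, respiratory and proteasome lists fell to 0.07, 0.03 and 0.02, and with the share of long genes as a covariate they were -0.02, 0.00 and 0.06. DESeq2 called 9 of 81 ribosomal and 2 of 59 respiratory entries higher after the correction, against 1.77% of the genes with an adjusted p.

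The 13 mRNAs of the mitochondrial chromosome were below 0 in all cases after the correction, with a median log2 change of -0.68, and 0 were called by edgeR. At an unadjusted p under 0.05 there were 9 (69.2%), against 19.1% of all genes. DESeq2 called 5 lower, against 2.94% of the genes with an adjusted p. The 13 come from the same chromosome and are not 13 separate observations. Their median log2 change was -0.445 before the correction. It was -0.785 with the trend fitted in 3 classes of expression and -0.158 with the share of long genes as a covariate. Mt-nd5, a subunit of complex I, stood at 995, 949 and 556 CPM in the controls and 473, 452 and 609 CPM with Phen-DC3. Control replicate 3 was like the treated libraries, so the groups overlapped, and the change of -0.70 ± 0.19 (adjusted p = 0.044) before the correction became -0.78 ± 0.21 (adjusted p = 0.11) after it. The list's medians relative to the control mean were 0.34, 0.20 and -0.54 in control replicates 1 to 3 and -0.77, -0.79 and -0.34 with Phen-DC3. Without control replicate 3, 10 of 13 were called lower after the correction, in a fit that called 793 of all genes lower. Without Phen-DC3 replicate 3 it was 1 of 13 with 489 of all genes, and leaving out any of the other 4 libraries left 0 of 13, with 3 to 6 at an unadjusted p under 0.05. The whole mitochondrial share of counts was 3.60%, 3.31% and 2.45% in the controls and 2.46%, 2.30% and 2.98% with Phen-DC3 (exact two-sided permutation p = 0.3).

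Centrosome and scaffold proteins, with a median length of 11161 bp, had 31 of 39 called lower before (79.5%, against 5.82% of all tested genes). Their median was -0.57 before and 0.02 after, with only Vps13a still called by the main test. The sign of that median after the correction turned negative with the 6 or the 12 libraries alone (-0.04 and -0.03) and with the covariate (-0.16). Macf1, a linker of actin and microtubules, changed from -0.58 to 0.18 on the log2 scale. Of 61 chromatin remodellers and histone modifiers, 27 were called lower before and 1 after, which was Ep300, and the median went from -0.36 to -0.11. After the correction 17 (27.9%) had an unadjusted p under 0.05, against 19.1% of all genes. The list's medians relative to the control mean were then -0.13, -0.07 and -0.04 in Phen-DC3 replicates 1 to 3 and -0.02 to 0.03 in the controls. Smchd1, which silences genes on the inactive X chromosome, stood at 28.4, 35.0 and 23.9 CPM in the controls and 14.8, 13.3 and 17.4 CPM with Phen-DC3, without overlap. It changed by -0.67 ± 0.15 after the correction and missed the threshold (adjusted p = 0.052).

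Cohesin, condensin and nuclear pore genes shape chromosomes and carry traffic through the nuclear envelope. Before the correction 14 of 31 were called lower (45.2%, against 5.82% of all tested genes). By edgeR 0 were called after it, and the medians were -0.36 before and -0.19 after. After the correction 7 of 31 (22.6%) were above 0, against 50.6% of all genes. In 8 of 31 the treated libraries lay below all controls, and in 0 above them, against 8.05% and 8.01% of all genes. Tpr, of the nuclear basket, had 43.8, 54.1 and 35.6 CPM against 21.9, 23.3 and 27.4 CPM (log2 -0.52 ± 0.15 after, adjusted p = 0.11). Wapl, which releases cohesin, had 45.0, 47.9 and 35.7 CPM against 28.8, 28.2 and 34.6 CPM (log2 -0.38 ± 0.11, adjusted p = 0.10). In both genes control replicate 3 was the lowest control and Phen-DC3 replicate 3 the highest treated library. After the correction 11 of these 31 genes (35.5%) had an unadjusted p under 0.05, against 19.1% of all genes, and DESeq2 called 7 lower, against 2.94% of the genes with an adjusted p.

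**Figure D4:**
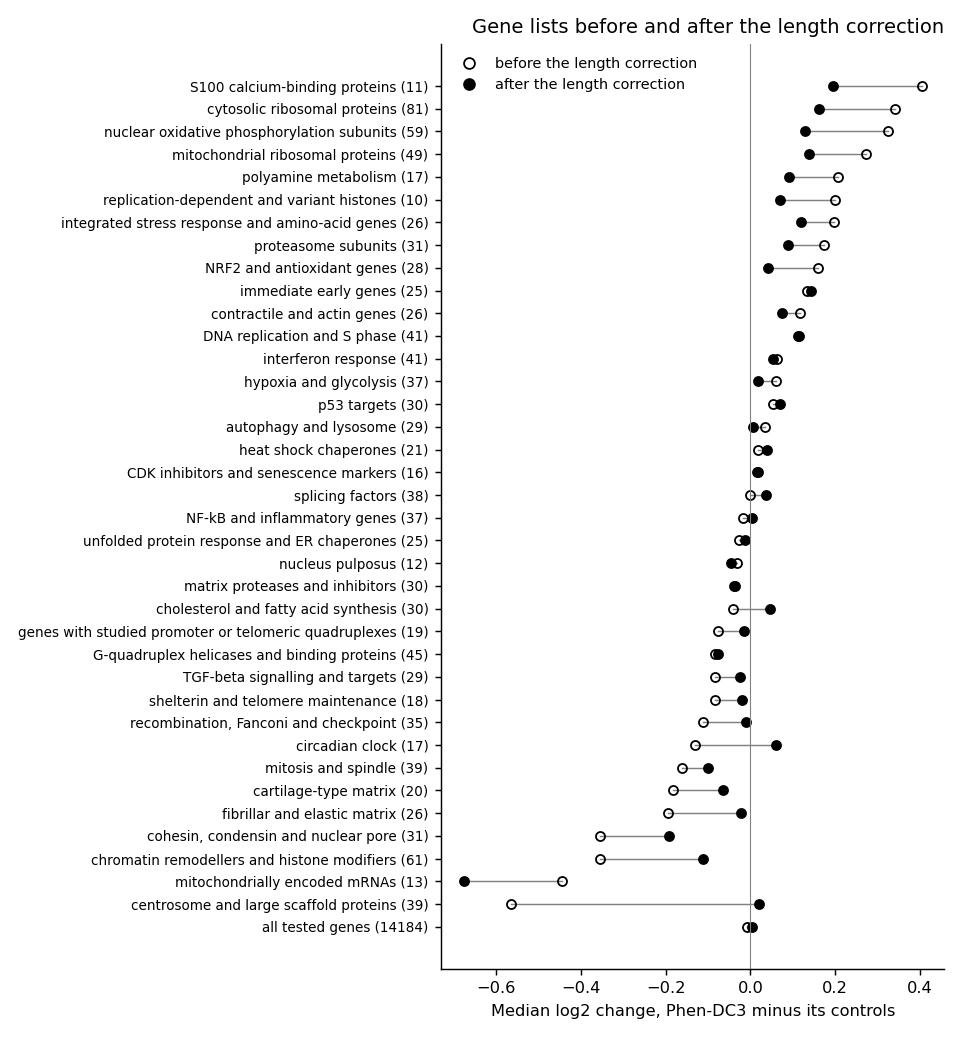
Median log2 change of Phen-DC3 minus its controls (horizontal) for each gene list and for all tested genes (vertical, number of tested entries in brackets), with open circles before and filled circles after the length correction. Centrosome and large scaffold proteins move from -0.57 to 0.02, and mitochondrially encoded mRNAs from -0.45 to -0.68.

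The lists of genes tied to G-quadruplexes held no call by edgeR once length was allowed for. Of all tested genes 0.148% were then called higher and 0.197% lower, so lists of this size would mostly hold none. Before the correction these shares were 2.19% and 5.82%. Of 45 entries for helicases and binding proteins, 6 were called lower before the correction and 0 after it by edgeR, with medians of -0.08 and -0.08. After the correction 13 (28.9%) had an unadjusted p under 0.05, against 19.1% of all genes, and DESeq2 called 1 higher, against 1.77% of those with an adjusted p. Atrx, a remodeller that limits such folds in repeats and telomeres, has a main model of 12500 bp. It stood at 15.7, 20.4 and 13.02 CPM in the controls and 7.04, 7.38 and 9.74 CPM with Phen-DC3, without overlap. Its change was -1.02 ± 0.21 before (adjusted p = 0.016) and -0.49 ± 0.20 after (adjusted p = 0.20). Sp1, a factor that binds guanine-rich promoters, went from -0.34 ± 0.08 (adjusted p = 0.016) to 0.03 ± 0.07. Top2a and Top2b, the type II topoisomerases, were at -0.23 ± 0.09 and -0.25 ± 0.11 after the correction, with overlapping groups.

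Among 19 tested genes known for quadruplexes in their promoters, 2 were called lower before, Egfr and Pdgfrb (10.5%, against 5.82% of all tested genes). By edgeR or DESeq2 0 of the 19 were called after. After the correction their median was -0.02, and 6 (31.6%) had an unadjusted p under 0.05, against 19.1% of all genes. Myc stood at 20.6, 18.5 and 18.1 CPM in the controls and 18.0, 20.3 and 19.3 CPM with Phen-DC3, and its change was 0.04 ± 0.10. Vegfa was at -0.02 ± 0.09, with overlapping groups. Shelterin and telomere genes gave 0 of 18 called after the correction by edgeR. DESeq2 called 2 lower, against 2.94% of the genes with an adjusted p, and 5 (27.8%) had an unadjusted p under 0.05, against 19.1% of all genes. Rif1, a telomere and replication timing protein, was the lowest by p among the 18, with 5.61, 9.39 and 4.67 CPM against 3.27, 2.99 and 2.91 CPM (log2 -0.75 ± 0.21, adjusted p = 0.096).

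The cell cycle lists had few calls, and after the correction few of all tested genes had one (0.148% higher and 0.197% lower). Before it 2.19% of all tested genes were called higher and 5.82% lower. Of 41 DNA replication genes, 2 were called higher and 2 lower before the correction and 0 after by edgeR, with medians of 0.11 and 0.11, and of 39 mitosis genes 1 and 6 before and 0 after, with medians of -0.16 and -0.10. After the correction 13 (31.7%) and 14 (35.9%) genes had an unadjusted p under 0.05, against 19.1% of all genes. DESeq2 called 3 replication genes higher and 1 lower, and 2 mitosis genes lower. Of the genes with an adjusted p it called 1.77% higher and 2.94% lower. Cdk1, the mitotic kinase, had 161.9, 161.0 and 164.8 CPM in the controls and 211.3, 193.4 and 204.2 CPM with Phen-DC3. The groups were clearly apart, and the change was 0.32 ± 0.07 before (adjusted p = 0.016) and 0.20 ± 0.07 after (adjusted p = 0.12). Mki67, a proliferation marker with a model of 9880 bp, differed in the other direction, at -0.85 ± 0.18 before (adjusted p = 0.018) and -0.40 ± 0.14 after (adjusted p = 0.15). Cdkn1a, the p53-induced inhibitor of cyclin-dependent kinases, stood at 272, 289 and 315 CPM against 376, 373 and 315 CPM, and was at 0.22 ± 0.07 after (adjusted p = 0.11). The p53 list had 2 of 30 called higher before and 0 after by edgeR, with 7 (23.3%) at an unadjusted p under 0.05, against 19.1% of all genes. DESeq2 called 1 of the list higher, against 1.77% of the genes with an adjusted p.

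Matrix and stress genes were mostly without a call after the correction, as were most tested genes (0.148% called higher and 0.197% lower). Before it 2.19% of all tested genes were called higher and 5.82% lower. Of 26 fibrillar and elastic matrix genes, 8 were called lower before the correction and only Thbs1 after it by the main test, and the median went from -0.20 to -0.02. Fn1, fibronectin, with a model of 8406 bp, stood at 12950, 10330 and 9708 CPM in the controls and 6558, 7495 and 7960 CPM with Phen-DC3. These did not overlap, and the change of -0.58 ± 0.11 (adjusted p = 0.011) became -0.18 ± 0.07 (adjusted p = 0.17). Col1a1 was at -0.02 ± 0.12 and Col2a1 at -0.07 ± 0.16 after the correction. Mmp3 and Mmp13, matrix metalloproteases, were at -0.08 ± 0.09 and -0.21 ± 0.22, and the aggrecanase gene Adamts5 at -0.24 ± 0.08 (adjusted p = 0.15). Of 29 TGF-beta genes only Skil was called, and of 41 interferon genes only Ifih1. Of 25 genes of the unfolded protein response, 3 were called lower before and 0 after by edgeR, with a median of -0.01. Of these 25, 6 (24%) had an unadjusted p under 0.05, against 19.1% of all genes. Of 26 genes of the integrated stress response, 1 was called lower before and 0 after by edgeR, with a median of 0.12. At an unadjusted p under 0.05 there were 5 (19.2%), again beside 19.1% of all genes. In this list 21 (80.8%) were above 0, against 50.6% of all genes. In 7 the treated libraries lay above all controls, against 8.01% of all genes. Ern1, the stress sensor IRE1, had 19.5, 18.96 and 16.8 CPM against 9.13, 12.2 and 14.1 CPM, without overlap. Its change was -0.64 ± 0.13 before (adjusted p = 0.013) and -0.32 ± 0.10 after (adjusted p = 0.12). Ppp1r15a, which reverses the translational arrest of that response, was at 0.29 ± 0.10 after (adjusted p = 0.13), also without overlap. Hspa5, Ddit3 and Hmox1, which report on stress of the endoplasmic reticulum and on oxidative stress, were at -0.02 ± 0.06, -0.03 ± 0.09 and 0.04 ± 0.07.

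The effect of Phen-DC3 was then set against the mean effect of PDS and Braco-19, each against its own controls, in 1 interaction contrast. After the length correction 61 genes differed (0.43%), 12 with the Phen-DC3 effect above that mean and 49 below it. The normalisations RLE and upper quartile gave 18 above and 42 below, and 19 above and 45 below. With group weights 7 passed. Leaving out Phen-DC3 replicate 1, 2 or 3 gave 9, 0 and 248 genes, with 1685 at an unadjusted p under 0.05 where none passed. Leaving out control replicate 1, 2 or 3 gave 9, 22 and 547. Of the 12 genes above, 10 were called for PDS, 1 for Braco-19 and 2 for Phen-DC3, and of the 49 below, 35, 5 and 12. The contrast contains the effects of all 3 compounds, so genes called for any of them are favoured among the 61. Of all tested genes 0.148% were called higher and 0.197% lower for Phen-DC3, and the shares for PDS and Braco-19 are not given here. A count of 14 genes was called both for Phen-DC3 and for the difference: Zfp445, Tulp4, Ddx19b, Slc35e2b, Slc25a36, Ep300, Hsd11b1, Skil, Ifih1, Itgav, Slk, Rbms1, Fndc3b and a gene model with no symbol. The contrast shares the Phen-DC3 term with the call, so this overlap is not separate support for an effect particular to Phen-DC3. Across the 49 called genes the sign of the Braco-19 effect was the same in 44 (89.8%, against 68.6% of all genes), and that of PDS in 15 (30.6%, against 36.9%). Before the correction the slope on length was 0.835, 0.671 and 0.716 with Braco-19, below its controls (0.942, 0.909 and 0.902), as with Phen-DC3. With PDS it was -0.415, -0.339 and -0.291, mostly above its controls (-0.386, -0.494 and -0.591). What part these shifts have in the shared signs was not tested.

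Ifih1 and Hsd11b1 changed one way with Phen-DC3 and had the other sign with both other compounds. Ifih1 was at -0.70 ± 0.15 with Phen-DC3, 0.40 ± 0.14 with PDS and 0.51 ± 0.14 with Braco-19, of which the last 2 missed the threshold (adjusted p = 0.09 and 0.087). The difference was -1.15 ± 0.18 (adjusted p = 0.0084). Hsd11b1, which regenerates active glucocorticoid, stood at 159.3, 150.0 and 149.7 CPM in the controls and 172.7, 175.7 and 169.2 CPM with Phen-DC3. It was at 0.34 ± 0.07 with Phen-DC3, -0.22 ± 0.07 with PDS and -0.16 ± 0.07 with Braco-19 after the correction, a difference of 0.53 ± 0.08 (adjusted p = 0.0084). Ep300 and Skil were at 0.30 ± 0.18 and 0.42 ± 0.13 with PDS, and their differences were -0.99 ± 0.21 and -0.76 ± 0.16 (adjusted p = 0.039 and 0.037).

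The remaining clearest differences were in genes called for PDS and not for Phen-DC3. Pmepa1, a TGF-beta feedback gene, was at -0.32 ± 0.09 with Phen-DC3 (adjusted p = 0.097) and 1.13 with PDS. Tfrc, the transferrin receptor, was at -0.10 ± 0.09 and 1.21, and Epas1, which encodes the oxygen-regulated factor HIF-2 alpha, at -0.23 ± 0.08 and 0.69. Nqo1, an antioxidant enzyme induced by NRF2, was at 0.16 ± 0.09 with Phen-DC3, -0.53 with PDS and -0.49 with Braco-19. Scara5, a ferritin receptor, was at 0.03 ± 0.07 with Phen-DC3 and -1.29 with PDS.

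**Figure D5:**
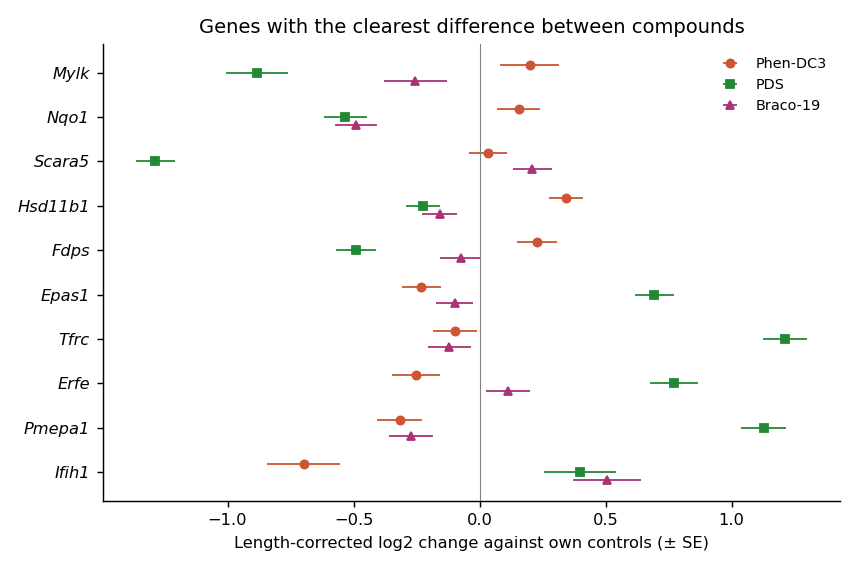
Length-corrected log2 change against own controls (horizontal, bars are SE) for the 10 genes with the smallest p in the contrast of compounds (vertical), with circles for Phen-DC3, squares for PDS and triangles for Braco-19. Ifih1 lies at -0.70 with Phen-DC3 and above 0 with both other compounds.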

How the data were processed

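The authors deposited 1 table of unnormalised read counts by gene, with symbols, positions and model lengths for 33898 genes. The submitters' processing notes name CASAVA, HISAT2 and featureCounts 1.5.0-p3, but no source used here names the build, annotation or strandedness, so overlapping and antisense genes cannot be separated. Analysis used R 4.3.3 and edgeR 4.0.16 (TMM, filterByExpr by group, robust quasi-likelihood F-test, 1 mean per group, 12 residual degrees of freedom), which left 14184 genes. Adjustment of p followed Benjamini and Hochberg over all tested genes, with a threshold of 0.05. CPM values use TMM-scaled totals. The length correction was an offset per library, a lowess fit (span 0.3, 3 iterations) of log2 CPM minus the mean over 18 libraries on log10 length. Standard errors come from the F statistics. The reads carry no stated molecular identifiers, so counting error understates the technical error.

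Named genes were, by rule, the up to 15 called genes with a symbol and smallest p in each direction (placeholder names did not count as symbols), up to 3 per gene list, a fixed set, and 5 per direction for the contrast of compounds. Slk, Rbms1, Fndc3b, Itgav, Il6st, Lims1, Rsf1, Vkorc1, Zfyve27, Nfs1 and Ptprd were named after their values were seen. A few genes that the rule names are not reported here. Members, the 36 gene lists and the 9 marker lists were chosen with earlier results of these data known. Alternatives were RLE and upper-quartile scaling, other filters, DESeq2 1.42.0, limma 3.58.1 (voom) with a weight per group, the 6 libraries alone, a replicate block, other length corrections and leaving out each replicate. A fit of the 12 PDS and Phen-DC3 libraries was chosen after seeing the data. No 2 libraries had identical counts.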

Additional observations from a re-analysis of the deposited data

Results flagged for a closer look

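Differences between the Phen-DC3 effect and the mean effect of PDS and Braco-19 were tested as an interaction in edgeR after the length correction, and 61 genes passed. The 10 with the smallest p, 5 in each direction, stand out because the effect of Phen-DC3 differed from the mean effect of the other 2 compounds. The Phen-DC3 effect was above the mean of the others for Nqo1 (0.667 on the log2 scale), Hsd11b1 (0.534), Scara5 (0.571), Mylk, the myosin light chain kinase (0.769), and Fdps, an enzyme of the mevalonate pathway (0.51). It was below the mean for Pmepa1 (-0.745), Ifih1 (-1.148), Tfrc (-0.644), Erfe, the iron hormone erythroferrone (-0.694), and Epas1 (-0.529). Of these 10, Hsd11b1 and Ifih1 were themselves called for Phen-DC3.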

How the results depend on the processing

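The count of 1136 genes before the length correction was 2106 by DESeq2, 1 with the 6 libraries alone, 2 with group weights (Tulp4 and Ptprd, named after their values were seen) and 0 with 12 libraries. Leaving out 1 replicate gave 0 to 3315. The 49 after it became 111 without a count filter, 525 by DESeq2, 1 with the 6 libraries, 0 with weights, 0 with the long-gene share as a covariate and 0 with 12 libraries, and 0 to 1527 with 1 replicate left out. At an unadjusted p under 0.05 there were 2706 genes with 18 libraries, 1586 with the 6 and 1933 with weights. The other scalings, the CPM filter, a span of 0.7 and the trend in 3 expression classes gave 45 to 73, of which 41 to 49 were among the 49. The 61 differences between compounds became 7 with weights, 412 without the length correction, and 0 to 547 with 1 replicate left out. Without the length correction Abcb4 (-0.138), Mau2 (-0.036), Ddi2 (-0.101), Tnrc6b (-0.277) and Sp1 (-0.339) had the opposite sign. The difference in the share of counts in long genes, -1.997 percentage points over 5000 bp, was -3.939 over 3000 bp and -0.723 over 8000 bp, and -1.625 to -2.362 with 1 replicate left out. Apart from the alternatives that use fewer libraries or genes by construction, the cause of these changes was not tested.

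Replicate numbers are shared by the 2 groups, but same-numbered libraries did not deviate together (correlations of -0.347, -0.125 and -0.574 over 9313 genes, and 0 of 6 libraries correlated best with their own number). With the replicate block 1 gene was called before and 1 after the correction.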

Other observations

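One gene passed in the 6 libraries alone. An entry of Nfs1, the mitochondrial cysteine desulfurase (chromosome 3, 151665814 to 151688149), had 4, 11 and 10 counts in the controls and 174, 282 and 217 with Phen-DC3 (log2 4.66 ± 0.31, edgeR adjusted p = 0.00045). With 18 libraries its adjusted p was 0.28. A further Nfs1 entry on the same chromosome (152200936 to 152222647) had 128, 317 and 15 counts in the controls and 19, 20 and 369 with Phen-DC3. Summed over both entries the counts were 132, 328 and 25 against 193, 302 and 586, and the groups overlapped. The 2 entries can share reads, so the value of each is uncertain.

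Called genes were spread unevenly over expression. Of 5 classes of mean expression, the highest held 11 of the 21 genes called higher after the length correction and 5 of the 28 called lower, while the second lowest held 1 and 8. The median log2 change after the correction was -0.07 in the lowest class and 0.04 in the highest.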
